A study of Rattus norvegicus with 6 samples.

Results

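The genes described here encode the amino acid carriers of 5 solute carrier families, SLC1, SLC3, SLC7, SLC38 and SLC43, in rat nucleus pulposus cells with and without knockdown of the clock gene Bmal1. They were chosen by symbol, as every row of the deposited table whose name begins with one of these family stems, which gave 39 of 32623 listed genes. Of these, 38 are carrier genes by symbol. The other, Slc7a6os, is an opposite-strand gene beside Slc7a6 and is described apart. Lumbar discs of male Sprague-Dawley rats, 4 weeks old, were the source of the cells, which were used at passages 3 to 5. For 72 hours they carried a lentivirus with a short hairpin, either the one directed at Bmal1 (3 libraries, shBmal1) or a negative control (3 libraries, shNC). The same strain, age, passage range and use of a lentiviral hairpin are given for both groups, and the labels name no other treatment. Whether both groups were cultured or prepared together is not stated, so such a difference could not be told apart from the hairpin. The labels do not give separate cultures or animals for libraries of the same group. The p-values therefore reflect the spread among these libraries alone, which may be technical.

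Amino acids cross cell membranes on carriers that differ in substrate and in driving force. SLC1 members move glutamate or small neutral amino acids with sodium, SLC38 members move glutamine and alanine with sodium or work in the lysosome, and SLC43 members are facilitated carriers. SLC7 divides into cationic carriers that work alone and light chains. Most of the light chains reach the membrane only when bound to a heavy chain, SLC3A2 (also called CD98) or SLC3A1. The light chain SLC7A11 with SLC3A2 forms the cystine and glutamate exchanger that feeds glutathione synthesis, and SLC7A5 with SLC3A2 imports leucine, to which the mTORC1 kinase complex responds. The nucleus pulposus has no blood vessels, and its cells take nutrients that reach them by diffusion.

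The libraries differed between the groups in more than the hairpin. Each shNC library held between 44043803 and 49783710 counts and each shBmal1 library between 8773762 and 11679587, a 4.44-fold difference of the means, and mitochondrial rRNA took 0.033 to 0.0602% of counts in shNC against 0.722 to 1.31% in shBmal1. At these depths 3 counts equal between 0.0603 and 0.0681 CPM (counts scaled to library size) in an shNC library and between 0.257 and 0.342 CPM in an shBmal1 library. Depth, rRNA share and hairpin cannot be told apart by design. Arntl, the symbol under which Bmal1 is listed, had an FPKM (the authors' fragment value scaled for gene length and library depth) of 8.38, 9.19 and 9.90 in shNC and 0.716, 1.39 and 0.690 in shBmal1, which left 9.55% of the control level in CPM. Of 14 nucleus pulposus and chondrocyte-like markers, 13 were found, and their summed FPKM was 2330 to 2680 in shNC and 406 to 431 in shBmal1. Most of that sum was Mgp, at 2199 ± 201 and 291.5 ± 24.0 FPKM. Of the 11 tested, Mgp, Pax1, Acan, Col2a1 and Krt8 were lower, Foxf1 and Hif1a higher, and Sox9, Krt18, Krt19 and Cd24 did not pass. The notochord marker Tbxt had no count in any library. Markers of annulus fibrosus and tendon summed to 416 to 441 against 24.3 to 32.8 FPKM, of leukocytes to 17.5 to 23.4 against 15.9 to 20.2 (mostly Cd14), of endothelium to 0.00819 to 0.143 against 0.621 to 0.768, and of neurons and glia to 3.05 to 3.28 against 4.83 to 5.41, with Rbfox3, Snap25 and Syp at no count. Only 2 leukocyte markers were tested, and they moved in opposite directions. Cd14 was lower, at 19.2 FPKM in shNC and 15.7 in shBmal1, and Cd68 higher, at 0.288 and 2.28 FPKM. The part of these differences in the carrier results was not tested, and fewer cells of a type and less RNA per cell cannot be told apart in bulk RNA.

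Of the 38 carrier genes, 25 had enough counts to be tested. In shBmal1, 10 were higher and 9 lower, and 6 missed the threshold of 0.05 on the adjusted p (quasi-likelihood test of edgeR). That is 76% of the carriers tested, where 71.3% of all 14342 tested genes passed (36% higher and 35.3% lower), so the share of carriers that changed was near the background. Their median log2 fold change (shBmal1 minus shNC, here and below) was 0.04, beside −0.01 over all genes tested. In CPM the groups did not overlap for 20 of the 25 carriers, against 77.3% of all genes. Calls with a change of at least 2-fold were made for 13 carriers, against 47.3% of all genes. Among 17 carriers with a mean of at least 1 FPKM over the 6 libraries, 6 were higher, 8 lower and 3 did not pass. In that range 74.9% of 12062 genes passed.

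The filter on low counts let in 18 carriers with enough counts in all 6 libraries. Of these 18, 7 were higher, 8 lower and 3 did not pass, though a minimum in every library leaves out genes near 0 in either group. Slc1a3, Slc1a7, Slc3a1 and Slc43a1 entered through shNC, and Slc38a4, Slc43a3 and Slc7a12 entered through shBmal1. The filter largely fixed the direction that a call of these 7 could take, so the calls of Slc38a4, Slc43a3 and Slc7a12 among the 10 and of Slc1a7 among the 9 support nothing by themselves. Another 13 carriers were not tested. No library had a count of Slc38a5, a glutamine carrier of system N.

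The 7 most abundant carriers in shNC were, by mean FPKM, Slc3a2 (113), Slc38a2 (112), Slc38a10 (88.0), Slc1a4 (75.9), Slc7a5 (72.9), Slc38a1 (56.7) and Slc1a5 (47.2). The single libraries of Slc3a2 and Slc38a2 overlapped, as did those of Slc1a4 and Slc7a5. In shBmal1 the order was Slc3a2 (300.3), Slc38a2 (183), Slc38a10 (112), Slc7a5 (91.4), Slc1a5 (36.7), Slc1a4 (29.3) and Slc38a1 (26.1), with no overlap between the libraries of neighbours in that order. Slc1a4 and Slc38a1 lay below Slc1a5 in each shBmal1 library and above it in each shNC library. Slc7a2 moved furthest among the carriers with at least 10 FPKM in either group, from 17.0 to 1.10 FPKM.

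**Figure D1:**
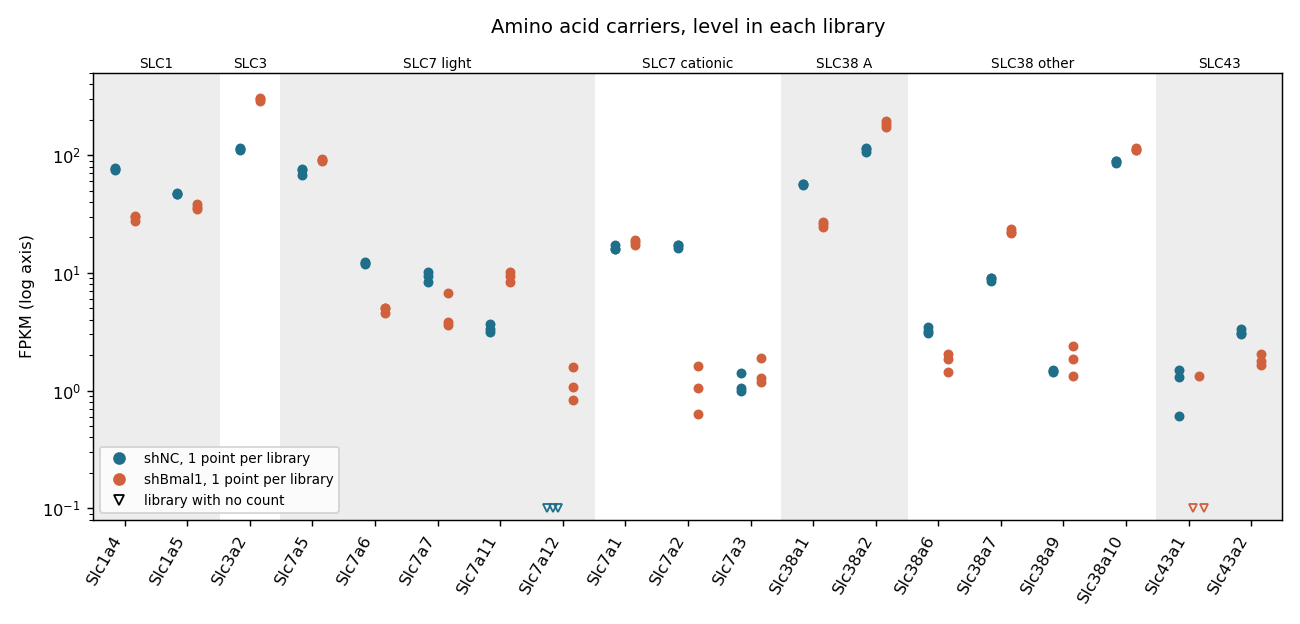
FPKM of the 19 tested carriers with a group mean of at least 1 FPKM (vertical axis, logarithmic), 1 point per library, blue for shNC and orange for shBmal1, ordered by family; open triangles mark libraries with no count. Slc3a2 has the highest mean in both groups, with Slc38a2 overlapping it in shNC, and Slc7a2 shows the widest gap among carriers with counts in every library.

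BMAL1 pairs with CLOCK and binds the E-box letters CACGTG, ATF4 drives amino acid response genes through a composite element with the letters TGATGNAA, and NRF2 acts through antioxidant response elements with the letters TGACNNNGC. RefSeq promoters of the GRCr8 build (300 bases, of which 250 lie before the start) were searched on both strands, and 29 of the 39 genes matched by symbol, with 33 promoters. The E-box letters stood in 7 of 33 promoters (21.2%) and in 6.42% of all 33469 promoters. TGATGNAA stood in 3 of the 33 (9.09%) and in 3.98% of all promoters, and TGACNNNGC in 6 (18.2%) and in 12.1% of all. Among 23 promoters of tested members, the E-box stood in 5 (21.7%), TGATGNAA in 3 (13%) and TGACNNNGC in 5 (21.7%), where promoters of all tested genes had 9.05%, 2.08% and 14.4%. The E-box genes were Slc1a4, Slc1a6, Slc1a7, Slc38a7, Slc43a1, Slc7a14 and Slc7a5. Of the 3 with a mean of at least 1 FPKM over the 6 libraries, Slc1a4 fell while Slc38a7 and Slc7a5 rose, the last by little and not under every scaling. Slc43a1, at 1.135 FPKM in shNC and 0.440 in shBmal1, did not pass. Slc1a7, with its E-box at base 13 counted from the start, was called lower but met the filter through shNC alone. Slc1a6 and Slc7a14 were not tested. Slc1a4, Slc38a7 and Slc7a5 are printed because they hold the E-box at carriers with ample counts. Another 2, Slc38a1 with TGATGNAA and Slc3a2 with the antioxidant letters, were chosen after their values were seen. TGATGNAA also stood at Slc1a4, which fell as Slc38a1 did, and at Slc7a1, which did not pass. The antioxidant letters also stood at Slc38a2, which rose, at Slc7a7, which fell, at Slc3a1 and Slc7a1, which did not pass, and at Slc38a8, which was not tested. Slc7a11, whose product pairs with that of Slc3a2, was searched and held none of the 3 motifs. Each run is the 250 bases before the start, 5′ to 3′ on the gene's strand, with the matches in capitals.
Slc38a7, chr19:9215128-9215377, forward strand, E-box 26 bases before the start: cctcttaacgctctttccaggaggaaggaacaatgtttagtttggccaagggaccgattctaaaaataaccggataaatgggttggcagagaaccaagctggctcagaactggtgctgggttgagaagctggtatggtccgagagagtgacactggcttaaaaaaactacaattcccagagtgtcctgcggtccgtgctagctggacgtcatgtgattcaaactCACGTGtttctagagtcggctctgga
Slc1a4, chr14:98761563-98761812, reverse strand, E-box 20 bases before the start and the reverse complement of TGATGNAA 235 bases before it: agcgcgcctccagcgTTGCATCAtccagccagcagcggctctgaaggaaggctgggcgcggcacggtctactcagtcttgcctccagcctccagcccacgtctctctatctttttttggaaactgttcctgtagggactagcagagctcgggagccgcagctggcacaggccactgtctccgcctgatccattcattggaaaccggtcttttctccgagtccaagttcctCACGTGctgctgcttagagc
Slc7a5, chr19:66872413-66872662, reverse strand, E-box 179 bases before the start: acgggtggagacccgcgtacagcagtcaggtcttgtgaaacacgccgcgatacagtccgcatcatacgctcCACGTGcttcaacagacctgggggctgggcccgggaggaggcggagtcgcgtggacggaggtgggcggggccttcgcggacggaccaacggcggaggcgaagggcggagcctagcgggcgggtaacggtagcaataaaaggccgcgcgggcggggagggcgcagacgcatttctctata
Slc38a1, chr7:129681402-129681651, reverse strand, TGATGNAA 142 bases before the start: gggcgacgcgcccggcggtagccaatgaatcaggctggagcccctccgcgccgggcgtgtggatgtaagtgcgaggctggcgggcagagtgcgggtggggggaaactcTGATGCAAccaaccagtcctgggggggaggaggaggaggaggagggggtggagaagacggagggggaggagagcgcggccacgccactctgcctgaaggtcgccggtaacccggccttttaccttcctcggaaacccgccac
Slc3a2, chr1:215039671-215039920, reverse strand, the reverse complement of TGACNNNGC 45 bases before the start: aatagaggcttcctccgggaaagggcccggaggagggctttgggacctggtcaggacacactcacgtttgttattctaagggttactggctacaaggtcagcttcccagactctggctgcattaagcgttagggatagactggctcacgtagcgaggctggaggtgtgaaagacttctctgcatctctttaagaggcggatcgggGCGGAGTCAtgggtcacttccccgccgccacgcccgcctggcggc
A match describes letters and is neither a bound site nor a cause. No promoter was in the table for Slc1a1, Slc1a5, Slc38a3, Slc38a10, Slc38a11, Slc43a3, Slc7a2, Slc7a3, Slc7a4 and Slc7a13.

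Slc3a2 (ENSRNOG00000018487), whose protein is the heavy chain of most light chains here, lies on chromosome 1 at 224906554 to 224921092 on the reverse strand, in the coordinates of the deposited table. The build of these coordinates is not named in the labels or file headers. In the single libraries Slc3a2 had an FPKM of 111.0, 111.9 and 116.0 in shNC and 290.0, 308.2 and 302.6 in shBmal1. Every shBmal1 library lay above every shNC library. In CPM it rose from 252 ± 3.55 to 620.3 ± 18.4 (SD, n = 3 per group), 2.46-fold, with a log2 fold change of 1.299 ± 0.054 (SE) and an adjusted p of 4.08e-07 (edgeR). Ranked by mean FPKM among all genes it moved from place 516 to place 306. Slc3a1, the heavy chain known from kidney and gut that pairs with SLC7A9, stood at 0.933 ± 0.151 FPKM in shNC and 0.230 ± 0.264 in shBmal1. Its 93, 108 and 117 counts against 4, 16 and 0 did not pass (log2 fold change −2.02 ± 0.89, adjusted p = 0.0732, edgeR). Without shBmal1 replicate 2 the adjusted p was 0.0135 and the log2 fold change −3.61.

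Slc7a11 (ENSRNOG00000010210, chromosome 2, 139453774 to 139528162, reverse strand), the cystine and glutamate exchanger, had an FPKM of 3.12, 3.34 and 3.67 in shNC and 10.1, 9.36 and 8.38 in shBmal1. The groups did not overlap. Its CPM rose from 32.6 ± 2.27 to 83.1 ± 8.33, a log2 fold change of 1.35 ± 0.10 (SE; adjusted p = 8.4e-06, edgeR). Slc7a11 and Slc3a2, the 2 chains of the exchanger, thus rose by 2.54-fold and 2.46-fold in CPM, and the table's pathway terms place only these 2 of the 39 genes under ferroptosis. With each library's FPKM brought to the same sum (TPM), the log2 fold changes were 0.894 for Slc7a11 and 0.924 for Slc3a2. With quantile-normalized FPKM they were 1.21 and 0.723, so the near-equal rise depended on the scaling.

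Slc7a5 (ENSRNOG00000018824, chromosome 19, 54693959 to 54722563, reverse strand), the leucine carrier LAT1, was the light chain with the highest level. Its FPKM of 76.2, 74.2 and 68.2 in shNC stood against 91.4, 92.7 and 90.04 in shBmal1. The rise was small, 1.16-fold in CPM (log2 fold change 0.21 ± 0.07, adjusted p = 0.0189, edgeR), and it turned with the scaling. On the TPM scale, where each library's FPKM are brought to 1 common sum and the median of all genes becomes −0.38, it came to −0.15 (adjusted p = 0.0902, limma), and with quantile-normalized FPKM to −0.23 (adjusted p = 0.0227, limma). Leaving out shNC replicate 3, shBmal1 replicate 1 or shBmal1 replicate 2 also ended the call (adjusted p = 0.0729, 0.053 and 0.092, edgeR).

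Both light chains that exchange cationic for neutral amino acids fell. Slc7a6 (ENSRNOG00000019943, chromosome 19, 38162515 to 38179149, forward strand), known as y+LAT2, had an FPKM of 12.4, 11.9 and 12.2 in shNC and 5.06, 5.05 and 4.59 in shBmal1. The log2 fold change was −1.42 ± 0.09 (adjusted p = 3.95e-06, edgeR). For Slc7a7 (ENSRNOG00000010296, chromosome 15, 33013504 to 33051129, reverse strand), known as y+LAT1, the values were 8.30, 9.35 and 10.1 against 6.69, 3.79 and 3.61. The shBmal1 replicate 1 lay apart from the other 2 and still below every shNC library. Slc7a7 fell by 1.09 ± 0.25 on the log2 scale (adjusted p = 0.0045, edgeR).

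Slc7a12, a light chain for small neutral amino acids known from rodent kidney, had no count in shNC and 14, 23 and 34 counts in shBmal1, or 0.829, 1.07 and 1.60 FPKM. Pooled over shBmal1, its CPM was 94.2 times a floor of 3 counts over the shNC group, with the spread among shBmal1 libraries left out. It met the filter through shBmal1 alone. The remaining light chains were not tested. Slc7a8, the carrier LAT2, had 23, 0 and 12 counts in shNC and 0, 4 and 0 in shBmal1, and Slc7a10 had 3 counts in 1 shNC library alone. Slc7a9, Slc7a13 and Slc7a15 had no shNC count and 8, 8 and 4 counts over the shBmal1 libraries.

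Relative to the heavy chain the light chains moved unequally. The summed FPKM of the 6 light chains known to pair with SLC3A2 (Slc7a5, Slc7a6, Slc7a7, Slc7a8, Slc7a10 and Slc7a11) was 0.902, 0.882 and 0.812 of that of Slc3a2 in shNC and 0.390, 0.360 and 0.352 in shBmal1. The groups were apart, with an exact two-sided permutation p of 0.1, the smallest that 3 against 3 libraries can give. Slc7a5 alone went from 0.646 ± 0.052 to 0.304 ± 0.0093 of the Slc3a2 level (SD). For Slc7a6 the ratio to Slc3a2 was 0.108 ± 0.0034 and 0.0163 ± 0.0011, and that of Slc7a7 was 0.0818 ± 0.0064 and 0.0158 ± 0.0063. Slc7a11 stood apart from these, at 0.0281, 0.0299 and 0.0316 of Slc3a2 in shNC and 0.0348, 0.0304 and 0.0277 in shBmal1. Its groups overlapped (exact permutation p = 0.7). Over the 7 ratios computed, the adjusted p was 0.117 wherever the groups were apart; all but the summed ratio were added after the values had been seen. These are ratios of RNA, not of protein at the membrane.

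**Figure D2:**
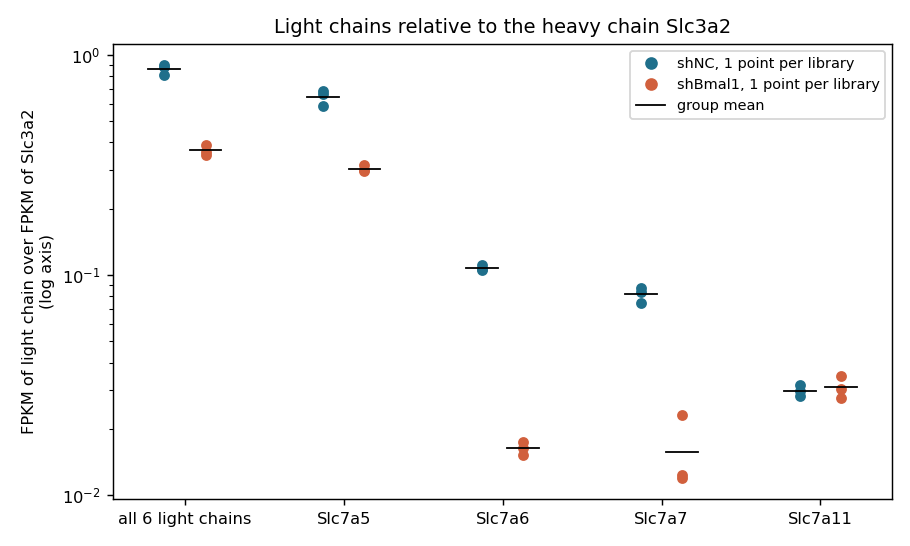
FPKM of light chains divided by the FPKM of Slc3a2 in the same library (vertical axis, logarithmic), 1 point per library, with bars at the group means. The summed ratio fell from a mean of 0.865 to 0.368, while the Slc7a11 points of the groups overlap around 0.03.

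Shares within the light chain group showed the same make-up from another side. Slc7a5 took 74.5 ± 1.95% of the summed light chain FPKM in shNC and 81.8 ± 1.54% in shBmal1. Slc7a6 went from 12.4 ± 0.44% to 4.39 ± 0.14%, and Slc7a7 from 9.50 ± 1.23% to 4.19 ± 1.45%. Slc7a11 went from 3.47 ± 0.39% to 8.30 ± 0.56%. Each of these shares had groups apart (exact permutation p = 0.1, adjusted p = 0.182 over 73 shares).

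Among the cationic carriers, Slc7a2 (ENSRNOG00000011016, chromosome 16, 54460067 to 54513349, reverse strand) fell the most. It encodes CAT2, an arginine carrier known to be inducible. The shNC libraries were at 17.4, 17.4 and 16.1 FPKM, and the shBmal1 libraries at 1.05, 0.633 and 1.61, with 2242, 2340 and 1925 counts against 26, 21 and 52. No library of the groups overlapped, and the fall was 16.5-fold in CPM (log2 fold change −4.04 ± 0.26, adjusted p = 3.95e-06, edgeR). Slc7a1 (ENSRNOG00000000924, chromosome 12, 8032809 to 8108972, forward strand) encodes CAT1, the widely expressed arginine and lysine carrier. Its FPKM of 17.2, 16.03 and 15.8 stood against 18.2, 18.9 and 17.2, and in CPM, 117 ± 6.40 against 120 ± 6.54, it did not pass (log2 fold change 0.04 ± 0.07, adjusted p = 0.672, edgeR). With TPM Slc7a1 came to −0.33 (adjusted p = 0.00979, limma), near the median of all genes on that scale, and with the trend over gene length removed to 0.29 (adjusted p = 0.00595, edgeR).

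In shNC the 2 arginine carriers were at like levels per length, and in shBmal1 they were not. Slc7a1 took 47.4 ± 0.65% of the summed cationic FPKM in shNC and 86.8 ± 3.88% in shBmal1, and Slc7a2 took 49.1 ± 1.22% and 5.27 ± 2.41%. Slc7a3, also a cationic carrier, had an FPKM of 1.42, 0.993 and 1.06 in shNC and 1.902, 1.19 and 1.28 in shBmal1, with overlapping groups (log2 fold change 0.22 ± 0.31, adjusted p = 0.534, edgeR). Slc7a4 had 23 counts, all in shNC replicate 3, and Slc7a14 had 4, 0 and 15 counts in shBmal1 and none in shNC.

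In the SLC1 family the 2 exchangers of neutral amino acids made up nearly all of the signal, and both fell. Slc1a4 (ENSRNOG00000005248, chromosome 14, 104581190 to 104612597, reverse strand), which exchanges alanine, serine and cysteine, had an FPKM of 74.8, 75.8 and 77.2 in shNC and 30.7, 29.6 and 27.7 in shBmal1. That was a fall of 2.80-fold in CPM (log2 fold change −1.48 ± 0.06, adjusted p = 4.91e-07, edgeR). Slc1a5 (ENSRNOG00000015948, chromosome 1, 78710539 to 78724794, forward strand), the glutamine exchanger ASCT2, went from 48.2, 46.7 and 46.6 to 35.0, 36.5 and 38.7 FPKM. Its groups were apart too, by a smaller step (log2 fold change −0.47 ± 0.06, adjusted p = 2.57e-04, edgeR). Slc1a5 had 0.644, 0.617 and 0.604 times the FPKM of Slc1a4 in shNC and 1.14, 1.23 and 1.40 times in shBmal1 (exact permutation p = 0.1). The summed FPKM of the family was 125 ± 0.86 and 67.8 ± 0.97.

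Glutamate carriers of the same family were low throughout. Slc1a1, the neuronal and epithelial glutamate carrier EAAT3, was higher in shBmal1, at 0.495 ± 0.226 against 0.135 ± 0.026 FPKM (log2 fold change 1.75 ± 0.52, adjusted p = 0.0161, edgeR). This rests on 75 counts over shNC and 64 over shBmal1, and it missed the threshold without shNC replicate 2 or 3 or shBmal1 replicate 3 (adjusted p = 0.0656, 0.0698 and 0.0821, edgeR). A ribozyme gene on the same strand overlaps Slc1a1 by 428 bases, with 7 counts in shNC and 35 in shBmal1. Slc1a7, the retinal carrier EAAT5, stood at 0.917 ± 0.440 FPKM in shNC and 0.130 ± 0.115 in shBmal1 (log2 fold change −2.78 ± 0.80) and met the filter through shNC alone. Its call was also lost without shNC replicate 3, which held 180 of 366 shNC counts (adjusted p = 0.0679, edgeR). Slc1a3, the glial carrier GLAST, stood at 0.835 ± 0.195 and 0.795 ± 0.665 FPKM and did not pass (adjusted p = 0.828, edgeR). Slc1a6 had 4, 23 and 4 counts against 18, 0 and 0, and Slc1a2, the main glutamate carrier of astrocytes, had 2 counts in shNC and none in shBmal1.

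The sodium-coupled carriers of system A, which take up alanine and glutamine, moved in opposite directions. Slc38a1 (ENSRNOG00000005291, chromosome 7, 137975549 to 138039984, reverse strand) had an FPKM of 57.2, 56.1 and 57.0 in shNC and 26.2, 24.8 and 27.2 in shBmal1 (log2 fold change −1.23 ± 0.06, adjusted p = 1.16e-06, edgeR). Slc38a2 (ENSRNOG00000006305, chromosome 7, 138088649 to 138100841, reverse strand), known to be induced when amino acids are scarce, went from 105.9, 113.8 and 115.6 to 194.8, 182.3 and 172.1 FPKM. Slc38a2 was higher in every shBmal1 library (log2 fold change 0.60 ± 0.07, adjusted p = 9.26e-05, edgeR). With quantile-normalized FPKM its difference was 0.08 and did not pass (adjusted p = 0.356, limma).

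Slc38a1 and Slc38a2 are neighbours on the same strand, 48.7 kb apart. Slc38a2 had 1.85, 2.03 and 2.03 times the FPKM of Slc38a1 in shNC and 7.45, 7.36 and 6.33 times in shBmal1 (exact permutation p = 0.1), and the share of Slc38a2 in the system A sum was 66.3 ± 1.17% and 87.4 ± 1.05%. Slc38a4, the hepatic member of system A, lies 359 kb beyond Slc38a2. It had 0, 12 and 6 counts in shNC and 5, 12 and 17 in shBmal1, or 0.0283 ± 0.0275 and 0.230 ± 0.105 FPKM. It met the filter through shBmal1 alone. Its call (log2 fold change 2.84 ± 1.03) was also lost when any library other than shNC replicate 2 was left out (adjusted p = 0.0564 and 0.111 without shNC replicates 1 and 3, and 0.0565, 0.1 and 0.14 without shBmal1 replicates 1, 2 and 3, edgeR).

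Of the remaining SLC38 genes, Slc38a7 changed the most. It encodes the lysosomal carrier SNAT7, which releases glutamine and asparagine from the lysosome, and lies on chromosome 19 at 9622611 to 9638222 on the forward strand (ENSRNOG00000012007). The shNC libraries had an FPKM of 9.04, 9.05 and 8.48, and the shBmal1 libraries 23.8, 21.9 and 22.1. That rise was 2.36-fold in CPM (log2 fold change 1.24 ± 0.08, adjusted p = 3.36e-06, edgeR), and 0.84 with TPM. Slc38a9, the lysosomal arginine sensor upstream of mTORC1, had an FPKM of 1.49, 1.46 and 1.44 in shNC and 1.33, 1.85 and 2.38 in shBmal1. Its groups overlapped (log2 fold change 0.23 ± 0.24, adjusted p = 0.409, edgeR).

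Slc38a10 (ENSRNOG00000004604, chromosome 10, 109284957 to 109333899, reverse strand) was at 89.3, 88.7 and 85.9 FPKM in shNC and 111.5, 115.0 and 109.7 in shBmal1. The rise in CPM was small (log2 fold change 0.24 ± 0.06, adjusted p = 0.00536, edgeR) and turned to −0.13 with TPM (adjusted p = 0.0918, limma) and to −0.22 with quantile-normalized FPKM (adjusted p = 0.0092, limma). Slc38a6 went from 3.10, 3.45 and 3.24 to 2.06, 1.44 and 1.87 FPKM, with groups apart (log2 fold change −0.97 ± 0.22, adjusted p = 0.00499, edgeR). It overlaps Trmt5 by 24 bases on the other strand, and the labels and headers do not say whether reads were counted by strand. Slc38a10 took 86.6 ± 0.20% of the sum of these SLC38 genes in shNC and 80.9 ± 0.99% in shBmal1, and Slc38a7 took 8.72 ± 0.14% and 16.3 ± 0.80%. Slc38a3, Slc38a8 and Slc38a11 had no shNC count and 11, 4 and 6 counts over the shBmal1 libraries.

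SLC43 genes were low and mixed. Slc43a2 (ENSRNOG00000003835, chromosome 10, 63677396 to 63719283, forward strand), the neutral amino acid carrier LAT4, had an FPKM of 3.32, 3.02 and 3.09 in shNC and 2.06, 1.66 and 1.79 in shBmal1. It fell by 0.88 ± 0.16 on the log2 scale (adjusted p = 0.00116, edgeR). Slc43a1, the related carrier LAT3, was at 1.296, 0.606 and 1.502 FPKM in shNC and had counts in shBmal1 replicate 2 alone, at 1.32 FPKM. With that library the difference did not pass (log2 fold change −1.42 ± 1.24, adjusted p = 0.333, edgeR), and without it the other shBmal1 libraries held no count and the adjusted p was 0.00246. Slc43a3, 65.5 kb from Slc43a1 and known as a purine nucleobase carrier, had no count in shNC and 39, 26 and 11 in shBmal1. Pooled over shBmal1, the CPM of Slc43a3 was 101 times the floor of 3 counts over the shNC group, with the spread among shBmal1 libraries left out. It met the filter through shBmal1 alone.

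**Figure D3:**
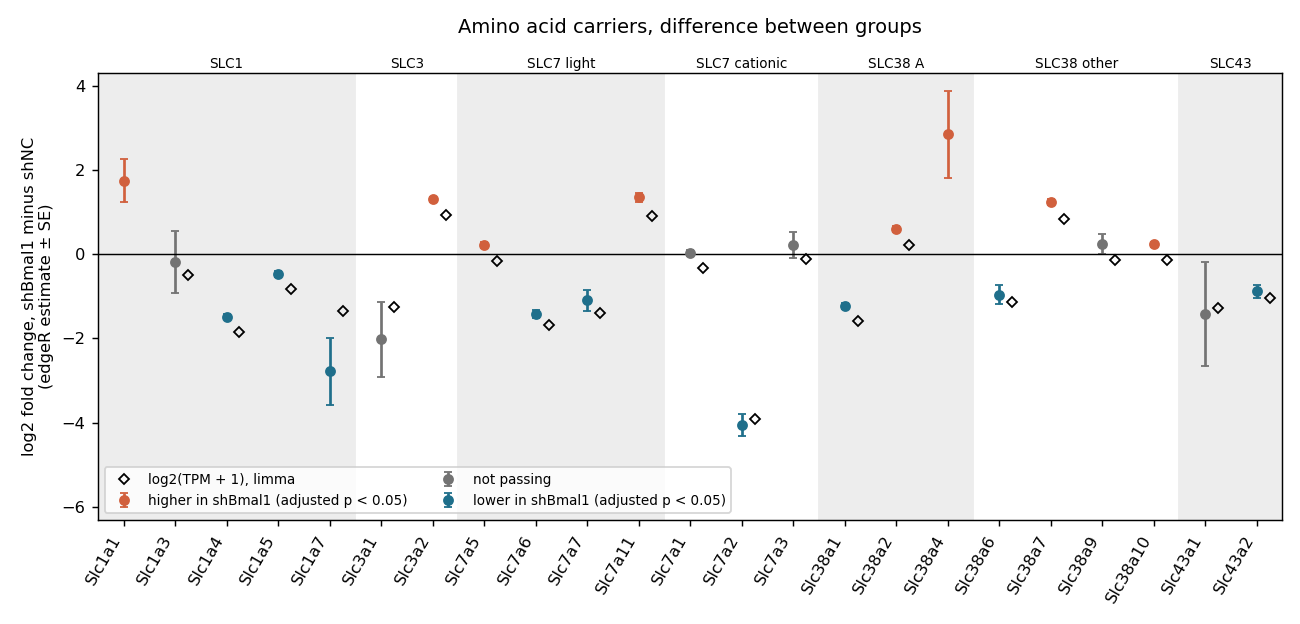
Log2 fold change of 23 tested carriers (vertical axis, shBmal1 minus shNC), filled points with bars of ± SE from edgeR on TMM-scaled counts and open diamonds from limma on log2(TPM + 1) where tested; Slc7a12 and Slc43a3, with no shNC count, are left out. Diamonds of Slc7a5, Slc38a10, Slc7a1, Slc38a9 and Slc7a3 fall on the other side of 0, where TPM moves the median of all genes to −0.38.

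Carriers with no shNC count and over 3 shBmal1 counts numbered 9 of 38. They were Slc38a3, Slc38a8, Slc38a11, Slc43a3, Slc7a9, Slc7a12, Slc7a13, Slc7a14 and Slc7a15, and among all listed genes 8.1% had this pattern (8.85% of protein-coding genes). Of the 32623 listed genes 12293 had no count in any library, against 1 of the 38 carriers. The share of carriers and that of all listed genes therefore do not rest on a like base. The shNC libraries are the deeper ones. Only Slc7a12 and Slc43a3 of these 9 had counts in all 3 shBmal1 libraries. Carriers with counts in shNC alone were Slc1a2, Slc7a4 and Slc7a10, each in 1 library. Among the 32623 listed genes, 1290 had counts in shNC alone and 3517 in shBmal1 alone, so the whole table leaned the same way.

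**Figure D4:**
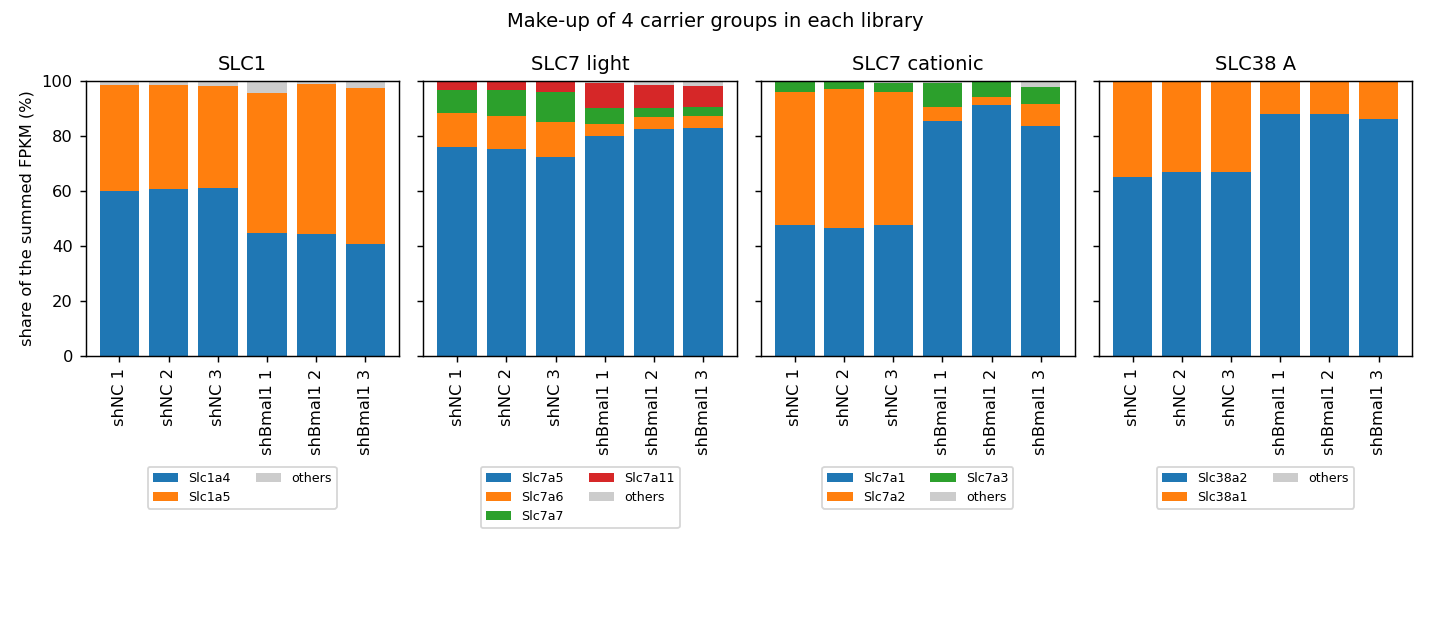
Share of each gene in the summed FPKM of its carrier group (vertical axis, percent) in each library, as stacked bars for SLC1, the SLC7 light chains, the cationic SLC7 carriers and system A of SLC38. Slc7a2 goes from 49.1 to 5.27% of the cationic group, and Slc38a2 from 66.3 to 87.4% of system A.

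Summed over the 38 carriers, FPKM came to 643, 647 and 647 in the shNC libraries and to 858, 860 and 838 in the shBmal1 libraries. Slc3a2 took 17.5 ± 0.38% of this sum in shNC and 35.2 ± 1.26% in shBmal1. Relative to each library's own summed FPKM the order turned, with 1556 ± 10.9 TPM in shNC and 1470 ± 45.7 TPM in shBmal1 (exact permutation p = 0.1 for both). The cationic group went from 34.5 ± 1.37 to 20.9 ± 0.42 FPKM and the light chains from 97.7 ± 3.09 to 111.7 ± 2.83. System A went from 168.5 ± 4.89 to 209.4 ± 10.9 FPKM. The other SLC38 carriers (Slc38a6 to Slc38a11) went from 101.6 ± 2.18 to 138.5 ± 1.74 FPKM. On the TPM scale these 3 rises turned, to 235.5 ± 9.49 and 192.6 ± 5.45 for the light chains and 406.2 ± 7.79 and 360.9 ± 12.4 for system A, and to the overlapping 244.9 ± 7.24 and 238.9 ± 8.27 for the other SLC38 carriers, while SLC1 (301.6 ± 2.58 and 117 ± 2.11) and the cationic group (83.2 ± 4.12 and 36.0 ± 0.56) stayed lower and the heavy chains (274.6 ± 4.79 and 518.7 ± 31.2) higher in shBmal1. The SLC43 sum of 4.28 ± 0.56 and 3.13 ± 0.89 FPKM overlapped between the groups (exact permutation p = 0.2), but on the TPM scale, at 10.3 ± 1.39 and 5.40 ± 1.53, the groups were apart (exact permutation p = 0.1).

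Slc7a6os (ENSRNOG00000020049, chromosome 19, 38180861 to 38189523, reverse strand) lies 1.71 kb beyond the end of Slc7a6 and points towards it. It shares the family stem by its symbol and encodes no carrier; its product is known as a factor for the nuclear import of RNA polymerase II. The shNC libraries stood at an FPKM of 7.48, 9.22 and 7.03, and the shBmal1 libraries at 54.3, 60.7 and 70.3. Slc7a6os rose 7.22-fold in CPM (log2 fold change 2.85 ± 0.14, adjusted p = 9.02e-07, edgeR) while its neighbour Slc7a6 fell. Counted with the carriers it would make 11 higher and 9 lower of 26 tested, with a median of 0.12.

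Genes that use, sense or respond to amino acids were read from 5 lists, by counts beside the 71.3% of all genes that passed. Of 24 tested genes on the list for the amino acid response of ATF4, 13 rose, 9 fell and 2 did not pass, with a median log2 fold change of 0.34. The list is not one of ATF4 targets alone, since it holds Atf4 itself (higher) and the kinase genes Eif2ak4 (lower) and Eif2ak3 (not passing). Atf3, a stress-induced transcription factor, rose from 1.89 ± 0.18 to 81.8 ± 1.68 CPM (log2 fold change 5.43). Ppp1r15a, whose product directs dephosphorylation of the initiation factor eIF2α, rose from 73.3 ± 2.88 to 1664 ± 107 CPM (4.51). Sesn2, which encodes the leucine sensor sestrin 2, rose from 146 ± 5.00 to 679 ± 33.6 CPM (2.22). In the other direction Nupr1, a stress-response regulator gene, fell from 203 ± 9.14 to 37.1 ± 1.52 CPM (−2.46). Adjusted p-values of these 4 lay between 2.63e-08 and 8.19e-08 (edgeR).

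Of 28 tested genes of amino acid sensing upstream of mTORC1, 10 rose, 14 fell and 4 did not pass, with a median of −0.42. Rheb, the GTPase that activates mTORC1, rose from 51.6 ± 4.05 to 227 ± 13.3 CPM (log2 fold change 2.14), and Rragc, which encodes a Rag GTPase, from 84.9 ± 2.43 to 180 ± 6.29 CPM (1.08). Flcn, whose product acts on the Rag GTPases, rose by 2.27. Castor1, which encodes a cytosolic arginine sensor, fell from 43.8 ± 0.42 to 12.6 ± 1.06 CPM (−1.80). All 4 passed in edgeR, with adjusted p-values of 3.07e-07, 1.93e-06, 5.05e-07 and 1.91e-06.

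For glutathione synthesis and cystine use, 4 of 13 tested genes rose, 5 fell and 4 did not pass, with a median of −0.16. Gclc, the catalytic subunit of the first enzyme of glutathione synthesis, fell from 112 ± 6.48 to 28.0 ± 6.09 CPM (log2 fold change −1.998, adjusted p = 1.05e-05, edgeR). Gclm, its modifier subunit, rose by 0.97, and Gss, the enzyme of the next step, by 0.83. Txnrd1 (0.33) and Ggt1 (3.86, from 0.138 ± 0.164 CPM in shNC) were the other 2 that rose. Cdo1, which oxidizes cysteine, and Keap1, which holds the factor NRF2 in check, fell by 2.89 and 1.56, and Ggt7 and Gsr by 0.85 and 0.66. The cystine exchanger genes Slc7a11 and Slc3a2 thus rose beside a fall of Gclc. Gclm, Txnrd1, Ggt1, Ggt7 and Gsr were named after their values were seen.

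Enzymes of glutamine, glutamate and branched-chain amino acids were lower in 16 of 21 tested, higher in 2 and not passing in 3, with a median of −0.94. Glul, the glutamine synthetase gene, stood at 41.1 ± 3.50 CPM in shNC and rose to 294 ± 39.0 CPM (log2 fold change 2.84, adjusted p = 3.64e-07, edgeR). Gls2, a glutaminase gene named after its value was seen, rose by 1.27. Oat, the ornithine aminotransferase gene, fell from 188.5 ± 5.11 to 24.8 ± 1.85 CPM (−2.92), and the branched-chain ketoacid dehydrogenase subunit gene Bckdha and its kinase gene Bckdk fell by 1.97 and 1.95. Among 18 tested genes on the list of carriers of other families, not all of them carriers of amino acids, 6 rose, 7 fell and 5 did not pass, with a median of −0.47. Slc6a6, the taurine carrier, fell from 243 ± 6.64 to 10.6 ± 5.02 CPM (−4.54, adjusted p = 2.84e-06, edgeR). Slc36a1, a lysosomal proton-coupled carrier, rose from 16.8 ± 0.67 to 65.8 ± 5.85 CPM (1.97), and Slc17a9, known as a vesicular nucleotide carrier, and Mfsd12, a lysosomal cysteine importer, fell by 1.70 and 1.53. With TPM, 1 of these carriers of other families was called higher in place of 6, and 8 of the ATF4 list in place of 13.

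**Figure D5:**
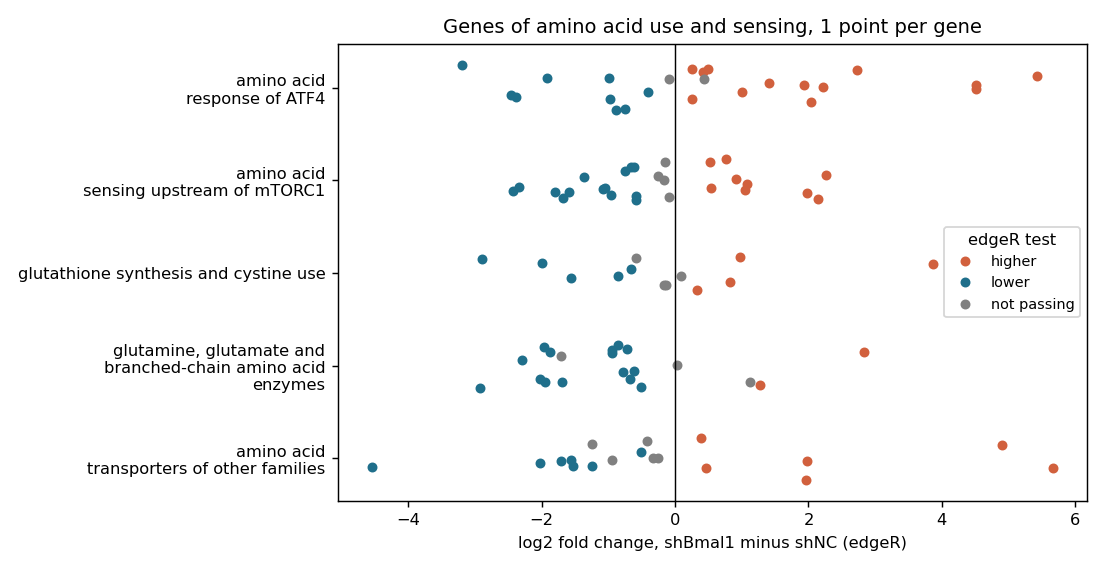
Log2 fold change from edgeR (horizontal axis, shBmal1 minus shNC) of the tested genes in the 5 lists, 1 point per gene, coloured by the result of the test; genes with a group mean of 0 are left out. The enzymes of glutamine, glutamate and branched-chain amino acids lie mostly left of 0, with Glul at 2.84, and the points of the ATF4 list spread from Atf3 at 5.43 to below −2.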

How the data were processed

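The labels' protocols describe polyadenylated RNA sequenced as paired-end reads. Their wording also mentions another tissue and poly(A)- fractions, so it may not describe these libraries. Tools named without a role in the submitters' processing notes are edgeR, DESeq2, StringTie 1.3.4d, HISAT2 2.0.4 and cutadapt 1.9. Neither labels nor file headers state the genome build, annotation, counting program or use of strand. The values are raw counts of reads for each gene and library, per the file headers, and deposited FPKM that the authors scaled for gene length and depth. Genes without a count, listed by the authors at FPKM 1e-04, were set to 0 here.

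The members and gene lists were chosen with earlier results of these data known. Groups came from sample titles. Counts passing filterByExpr (minimum 10, total 15) were scaled by TMM and fitted over the whole table with edgeR 4.0.16 (quasi-likelihood, R 4.3.3; Benjamini-Hochberg adjusted p under 0.05). CPM are TMM-scaled and FPKM are not, so ratios of FPKM exceed the fitted folds of higher genes. Shares and ratios within a library used exact two-sided permutation tests. All members are accounted for: those tested with a group mean of at least 1 FPKM by library, lower ones by group, untested ones by counts, and per list up to 4 genes of smallest p. Alternatives used limma 3.58.1 (pseudocounts 1 and 0.1), DESeq2 1.42.0, other scalings, filters and libraries left out. Floors of 3 counts cover counting error only. No 2 libraries of a group agreed within sampling noise. On simulated counts of 14189 genes at these depths, calls were made for 2.99% of 67 genes with a true log2 change of 0.5. They were made for 46.3% of 67 with a change of 1, for 96.9% of 65 with a change of 2, and for 5 of 13990 unchanged genes. Every simulated gene had the same spread (biological coefficient of variation 0.213) and few were changed. In the data the spread differed by gene and 71.3% of genes passed, so these shares do not give the power of the real test.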

Additional observations from a re-analysis of the deposited data

How the results depend on the processing

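Over 18 alternatives, 11 of the 19 called carriers kept direction and call in each, 2 more (Slc7a12 and Slc43a3, whose direction the filter largely fixed) wherever they were tested, and 6 lost or turned in at least 1. Carriers higher in shBmal1 numbered 10, against 5 with TPM, 6 with log2(FPKM + 1), 6 with log2(FPKM + 0.1), 3 with quantile-normalized FPKM and 7 to 9 with 1 library left out; fewer carriers were tested on the FPKM and TPM scales (17 and 22). The median of the carriers (0.0361) was 0.0957 with DESeq2, 0.0958 with RLE factors, −0.659 with TPM, 0.139 with log2(FPKM + 1), 0.146 with log2(FPKM + 0.1), −0.234 with quantile-normalized FPKM, 0.15 without a filter, −0.123 with counts thinned to the shallowest library, 0.288 with the length trend removed, and −0.257 to 0.176 with 1 library left out (lowest without shBmal1 replicate 1, highest without shBmal1 replicate 2). The median of all genes was −0.379 with TPM, −0.105 with quantile-normalized FPKM and 0.313 without a filter, and 36.1% of all calls were higher with TPM against 50.5%. Turned values were −0.154 (TPM) and −0.234 (quantile) for Slc7a5, −0.134 and −0.222 for Slc38a10, and −0.327 with TPM for Slc7a1; the cause was not tested. Carriers that did not pass also changed sign without a call, with TPM Slc38a9 (−0.133) and Slc7a3 (−0.114), with quantile-normalized FPKM and without a filter Slc7a1 (−0.022 and −0.0381), and with 1 shBmal1 library left out Slc7a1, Slc7a3, Slc38a9 and Slc1a3. With TPM, 8 genes of the ATF4 list and 1 carrier of other families were higher, and with quantile-normalized FPKM 2 of the glutathione list. Slc7a5 lost its call without a filter (adjusted p = 0.12, edgeR) and Slc3a1 gained one with DESeq2 (0.0485), TPM (0.00821), thinned counts (0.0211) and without shBmal1 replicate 2 (0.0135) or 3 (0.0494). Replicate numbers did not pair the libraries (correlations of deviations −0.0705, −0.00258 and 0.0203), and a replicate block gave 8 higher, 9 lower and a median of 0.0363, with Slc1a1 and Slc38a4 at adjusted p of 0.107 and 0.0804. The 6 shares followed across alternatives and the summed light to heavy chain ratio kept their direction in the 8 alternatives run for them. These were raw counts, a minimum of 1 FPKM, and 1 library left out. Leaving out 1 library could not turn the direction, because the groups were apart, so it supports nothing here. Depth limits genes of a few counts in shBmal1.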
